A study of Mus musculus with 38 samples.

Results

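The comparison is between 2 ways of mapping the same overexpressed transcription factor in asynchronous mouse embryonic stem cells: HA-tagged Halo-HSF2 detected with anti-HA, and Halo-HSF2 without the HA epitope detected with anti-HSF2. Members were the binding sites of endogenous HSF2 as listed by the authors, and each site was described by the log2 ratio of its anti-HA to its anti-HSF2 signal and by its rank within each signal. The list holds 2141 intervals, of which 2135 are distinct, and the whole series lists 18942 distinct intervals for HSF1, HSF2 and SOX2. A ratio could be taken at 2122 of the 2135 sites, those with signal above 0 in both columns. The sites were called on endogenous HSF2 libraries, so neither of the signals compared here was used to choose them.

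All cells were JM8 mouse embryonic stem cells, and binding was mapped with CUT&Tag, in which an antibody tethers a Tn5 transposase that cuts and tags the DNA around the bound protein. Both groups were Hsf2 knockout cells, in which the Hsf2 locus had been deleted with CRISPR-Cas9 in a picked colony, and in which a Halo-tagged HSF2 coding sequence had been integrated with Piggybac and kept under G418. The anti-HA group carried an N-terminal HA-3xFlag-Halo tag on full-length HSF2, the anti-HSF2 group carried a Halo tag and is labelled HSF2-OE, and neither had received nocodazole. Each group had 2 libraries, 4 of the 38 in the series. The deposited signal is 1 column per group, averaged over its libraries by the authors, so no value below has a spread between libraries and no test between the groups was possible. Antibody, epitope and stable line differ together between the groups and cannot be told apart.

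HSF2 is a heat shock transcription factor that binds DNA as a trimer at heat shock elements, arrays of inverted GAA units found in the promoters of chaperone genes. Together with HSF1 it occupies genes for HSP70, HSP90 and other chaperones, and it is known for roles in development and in the bookmarking of genes through mitosis. HaloTag is a protein tag used for live imaging, and HA is a short peptide recognised by a commercial antibody.

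Heat shock elements at well known HSF targets are shown first, since they are the kind of sequence the factor is known to bind. An element was searched as 3 inverted GAA units, each 2 bases from the next, on both strands of the RefSeq GRCm38 sequence of each site, and capitals mark it. It was present in the central 300 bp of 65 sites (3.05%), against 0.603% of 32851 RefSeq promoters of 300 bases, and anywhere in the interval at 300 of the 2131 sites with sequence (14.1%). The intervals at Hspa1a, Hspa1b, Dnajb1 and Hsp90ab1 held no match in this form. The plus strand is printed. The intervals at Hspa8 and at Hspd1 with Hspe1 held 2 matches each, of which 1 is marked.
Hsp90aa1, chr12:110696379-110696407: agcctccgGAACCTTCCGGAAgaaccctc
Hspa8, chr9:40801055-40801083: gcgagcgtGAAAGTTCCAGAAcgccgcgg
Hsph1, chr5:149636280-149636308: actgaggaGAACTTTCCAGAAtctgcagc
Hspd1 and Hspe1, chr1:55088056-55088084: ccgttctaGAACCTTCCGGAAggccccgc

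Across the 2122 sites, the anti-HA signal was 0.881 times the anti-HSF2 signal in the median, a log2 ratio of -0.18 with a 95% order-statistic interval over sites of -0.22 to -0.14. The anti-HA signal was the higher of the pair at 41.7% of sites (Wilson 95% interval 39.6% to 43.8%). The means ran the other way, 2.33 for anti-HA against 2.12 for anti-HSF2, because the 10 strongest sites held 22.6% of the summed anti-HA signal and 11.5% of the summed anti-HSF2 signal. Levels of separately scaled tracks need not share a zero point, so each ratio below is centred on the median and called a centred log2 ratio. A site is on the anti-HA side when it lies at least 2-fold above the median ratio, and on the anti-HSF2 side when it lies at least 2-fold below. There were 308 sites on the anti-HA side (14.5%) and 249 on the anti-HSF2 side (11.7%), and the remaining 1565 were within 2-fold. The lower and upper quartiles of the centred ratio were -0.56 and 0.64, and its extremes -3.95 and 5.39.

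**Figure D1:**
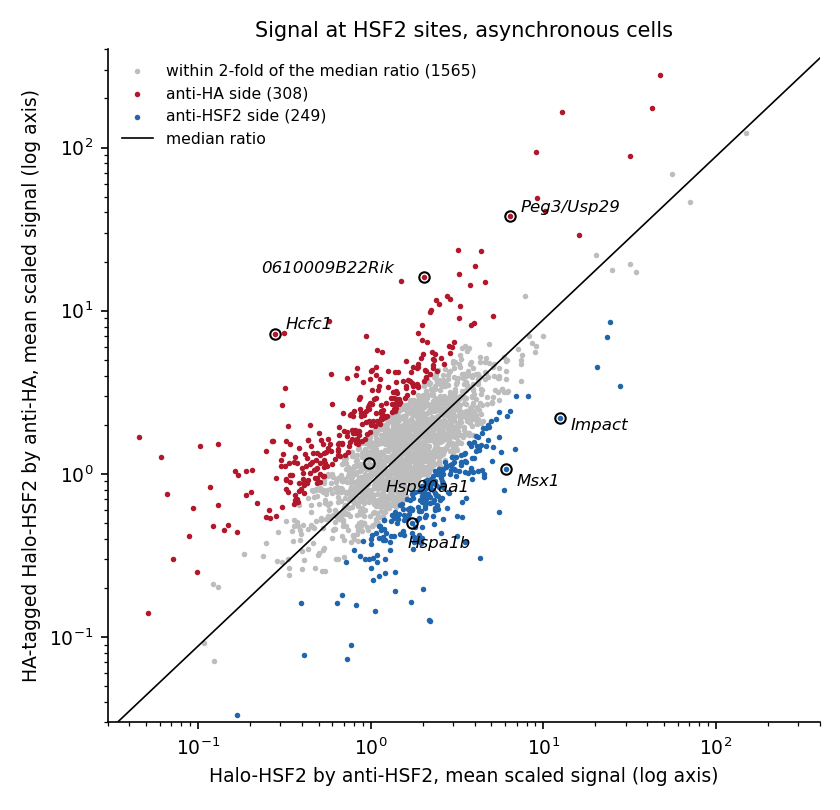
Mean scaled signal of HA-tagged Halo-HSF2 by anti-HA (vertical, log axis) against Halo-HSF2 by anti-HSF2 (horizontal, log axis) at 2122 HSF2 sites, 1 point per site, with the median ratio as a line. The 308 sites of the anti-HA side and the 249 of the anti-HSF2 side lie away from the line over most of the range of signal.

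The order of the sites was shared only in part. The Spearman correlation of the columns was 0.56 over 2135 sites, and Pearson's r of the log2 signals was 0.59 over 2122. The points share the same intervals, so their width and base composition enter both columns. Anti-HA signal of Halo-HSF2 was closer in order to anti-HA signal of Halo-H2DBD, the HSF2 DNA-binding domain on the same tag (0.88), and to its own mitotic signal (0.83). The anti-HSF2 column reached 0.59 both with its own mitotic signal and with Halo-H2DBD. Endogenous HSF2 in asynchronous wild-type cells correlated weakly with either column, at 0.08 for anti-HA and 0.17 for anti-HSF2. Endogenous HSF2 in mitotic cells reached 0.34 and 0.33 with the same columns, and 0.49 with its own asynchronous signal.

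At the chaperone genes 7 of 8 sites lay within 2-fold of the median ratio, as did 73.8% of all sites. The 8 lie at the promoters of Hsp90aa1, Hspa8, Hspa1b, Hspa1a, Hsph1, Dnajb1, Hspd1 with Hspe1, and Hsp90ab1. All were between the 88th and the 99.8th percentile of endogenous HSF2 signal, whereas their median percentile was 50.1 by anti-HA (7.45 to 77.5) and 40.7 by anti-HSF2 (23.7 to 87.4). Over the 65 sites with an element in their central 300 bp, the median percentile was 86.5 for endogenous HSF2, 20.0 for anti-HA and 14.8 for anti-HSF2. The median signal over these 65 sites was 0.777 and 0.760 by the latter 2, against 1.36 and 1.58 over all sites. How much of either signal would be present without the construct was not tested, since no control column over these sites was used here. The series holds libraries of anti-HSF2 in Hsf2 knockout cells and of anti-HA in wild-type cells, and the paper plots both over HSF2 sites.

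Hsp90aa1, which encodes the inducible cytosolic HSP90, had a signal of 1.16 by anti-HA and 0.973 by anti-HSF2 (chr12:110693602-110705488, promoter and gene body), a centred log2 ratio of 0.44. Hspa8, the constitutive HSP70, had 2.19 and 1.45 (chr9:40797528-40808044), and Hsph1, an HSP110 nucleotide exchange factor, had 1.55 and 1.24 (chr5:149634578-149637412). Their centred ratios were 0.77 and 0.51, below the 2-fold limit. The mitochondrial chaperonin pair Hspd1 and Hspe1, which share a promoter, had 1.2 and 1.28, and Dnajb1, an HSP40, had 2.18 and 2.20. Hsp90ab1, the constitutive HSP90, was lower by anti-HA, at 2.27 against 3.10, with a centred ratio of -0.27.

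Among these genes the inducible HSP70 locus departed most. Hspa1b had 0.502 by anti-HA and 1.74 by anti-HSF2 (chr17:34956119-34961062), a centred ratio of -1.61, which placed it at the 7.45th percentile of the former and the 55.7th of the latter. Its neighbour Hspa1a had 0.615 and 1.28, a centred ratio of -0.88. In mitotic cells, measured in other libraries, the same ratio stood above the median at both genes, at 0.61 and 0.62. Hspa1a and Hspa1b are near-identical copies, so that reads may be split between them and their single values are uncertain. The Hsf1 promoter, shared with Bop1, had 0.803 and 0.584, a centred ratio of 0.64. Pou5f1, which encodes OCT4, had 2.00 and 1.43, a centred ratio of 0.67. No listed HSF2 site lay within 1 kb of a start of Sox2, Nanog or Hsf2.

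Site classes differed by less than the range between single sites. The 1554 sites within 1 kb of a coding start had a median centred log2 ratio of -0.01 and the 568 others one of 0.06, with intervals that overlapped. Away from coding starts more sites were called on the anti-HA side, 21.1% against 12.1%. On the anti-HSF2 side the shares were 13.7% and 11.0%, with Wilson intervals that overlapped (11.1% to 16.8% and 9.54% to 12.7%). Median signals were lower away from coding starts, at 1.11 by anti-HA and 1.32 by anti-HSF2, against 1.43 and 1.66. Whether this accounts for the shares was not tested. Sites that overlapped an HSF1 site had the larger shift, with a median of 0.17 (0.09 to 0.25) over 862 sites against -0.13 (-0.19 to -0.07) over 1260. Of the former, 19.5% were on the anti-HA side and 6.15% on the anti-HSF2 side, against 11.1% and 15.6% of the latter. The direction was the same at coding starts (0.13 against -0.11) and elsewhere (0.21 against -0.21). Within quartiles of mean rank, a division chosen after the values were seen, the difference between sites with and without HSF1 ran from 0.11 in the strongest quartile to 0.44 in the quartile below it.

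Other properties of the sites gave differences of varied size. Sites that overlapped a SOX2 site had a median of 0.23 (0.10 to 0.36, 403 sites), against -0.04 for the rest. The quartile of sites with the lowest GC share, at or under 51.3%, had a median of 0.25 with 25.1% of its sites on the anti-HA side, against -0.17 and 9.40% in the third quartile. The widest quartile stood at -0.10 and the narrowest at 0.05. Sites with a heat shock element anywhere in the interval did not stand apart in the median, at 0.04 (-0.13 to 0.15, 293 sites) against 0.00 for those without. Where the element lay in the central 300 bp the median was 0.26 (0.09 to 0.61, 62 sites). There 17 sites were on the anti-HA side (27.4%, beside 14.5% of all sites) and 7 on the anti-HSF2 side (11.3%, beside 11.7%). Signals were low over all 65 such sites, with medians of 0.777 by anti-HA and 0.760 by anti-HSF2. The site at or nearest to Bcl2l14, with the highest ratio of them, had 0.549 and 0.0279.

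**Figure D2:**
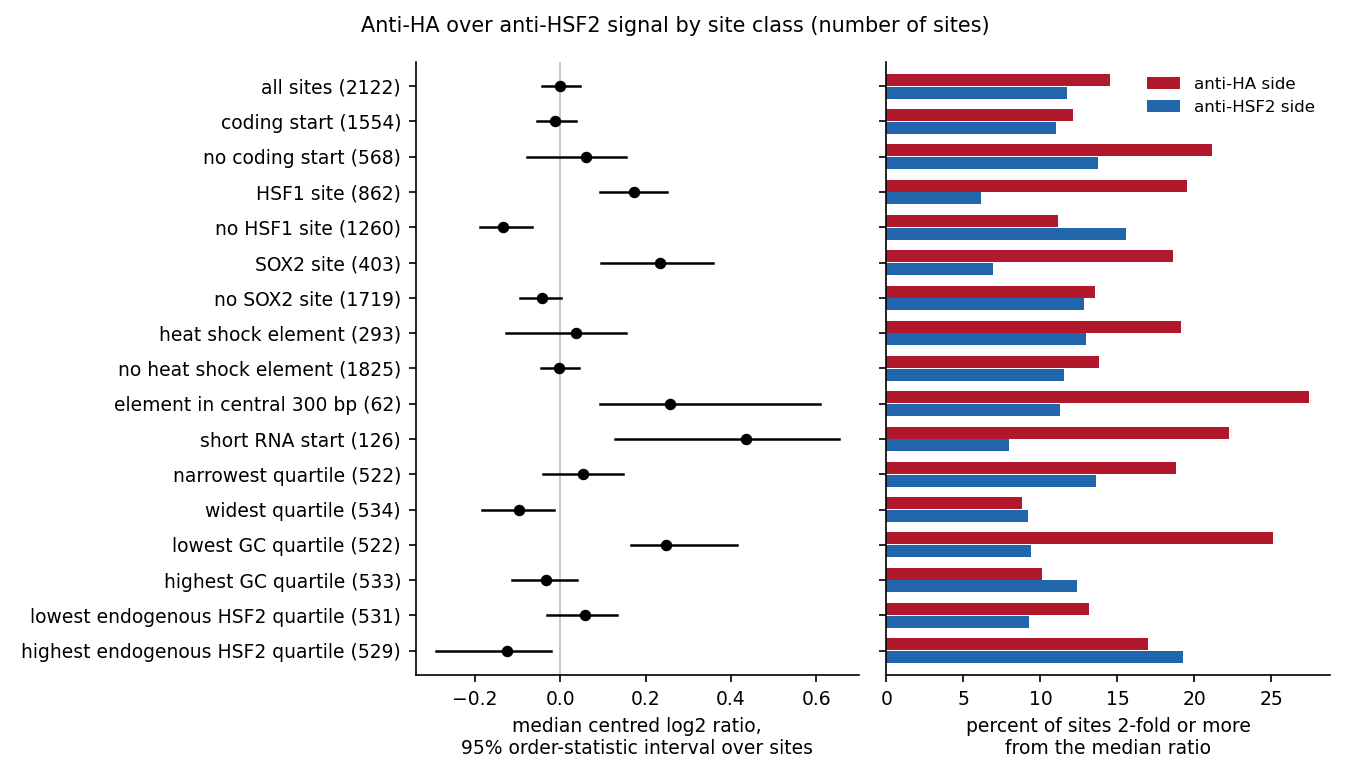
Median centred log2 ratio with its 95% order-statistic interval over sites (left) and percent of sites on the anti-HA and anti-HSF2 sides (right) for classes of HSF2 sites, with the number of sites in brackets. Sites with HSF1 lie at 0.17 and those without at -0.13, and the lowest GC quartile has 25.1% of its sites on the anti-HA side.

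Elements of the same form were found at both ends of the ratio. Among the 1068 sites in the upper part of the ranks, whose mean percentile over both columns was at or above the median, sites with an element had low ratios at Phrf1 (-1.38) and Otx1 (-1.33), and the highest at Parp16 (1.55), Rdm1 (1.52) and Jmjd6 with Mettl23 (1.29). The Phrf1 site had 1.19 by anti-HA and 3.51 by anti-HSF2, and the Parp16 site 2.44 and 0.944. Both ends are printed so that the units can be compared, with capitals for the element.
Phrf1, chr7:141228743-141228771: gcagggcaGAAAGTTCCGGAAgagtatgg
Otx1, chr11:21993309-21993337: tctaccagGAAAGTTCGCGAAccaccggg
Jmjd6 and Mettl23, chr11:116843321-116843349: aagtcgccTTCCAGAAGATTCactcctca
Rdm1, chr11:101626103-101626131: tgactcctGAAGGTTCCTGAAgcttttac
Parp16, chr9:65195289-65195317: ccggtcctTTCTGGAACATTCtgtgtttg

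Of the other sequences searched in the central 300 bp of each site, the YY1 motif had the highest median, in the form printed in capitals in the next group of sequences. It was present at 28 sites (1.31%, against 0.633% of RefSeq promoters), 96.4% of them at coding starts. Their median centred log2 ratio was 0.63 (0.28 to 0.97), with 8 sites on the anti-HA side and 2 on the anti-HSF2 side, and their mitotic median was 0.35. CACGTG, the E-box bound by factors such as MYC, USF and TFEB, had a median below 0. It was present at 245 sites (11.5%, against 7.15% of RefSeq promoters), with a median of -0.22 (-0.41 to -0.07), 22 sites on the anti-HA side and 45 on the anti-HSF2 side. Those 45 were 18.1% of the anti-HSF2 side, while the 22 were 7.14% of the anti-HA side. In mitotic cells the median at E-box sites was -0.41. GGGCGG (0.01), CCGGAAGT (0.05), TATAAA (0.13), TGANTCA (-0.04), TGACGTCA (0.28) and the NRF1 palindrome (-0.27, 15 sites) had intervals that held 0, and CCAAT had a median of 0.09 (0.00 to 0.20). A match to these letters describes the sequence and does not show which protein was bound.

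The matches at the extremes of both motifs are printed on the strand that reads the motif, with the motif in capitals. They are the 3 highest and 2 lowest sites with the YY1 motif, then 2 low CACGTG sites and the 2 highest, of those in the upper part of the ranks.
Hcfc1 (4.87), chrX:73966957-73966985, minus strand: tcttcacacAAGATGGCGGCtcccaggga
0610009B22Rik (3.18), chr11:51688798-51688826, minus strand: ccctgatccAAGATGGCGGCcggaccggg
Cnot3 (2.49), chr7:3645274-3645302, minus strand: gcccggtccAAGATGGCGGCggcggaggc
Nup50 (-1.33), chr15:84923410-84923438, plus strand: tcgagttacAAGATGGCGGCcccgggcgc
Dnajc13 (-1.81), chr9:104262886-104262914, minus strand: gcctggtggAAGATGGCGGCgtccagggc
Zpbp (-2.14), chr11:11461974-11462003: tgtagtcggagtCACGTGacacggggccaa
Hdac2 (-1.89), chr10:36974056-36974085: agagaattgaaaCACGTGggaatatcggac
Jmjd6 and Mettl23 (1.29), chr11:116843780-116843809: tgcggcggcaccCACGTGggagccccctgt
Atp5g1 (1.61), chr11:96075983-96076012: gacgcaagctgaCACGTGataagggctcca

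At the anti-HA end, the largest centred ratio among the 1068 sites in the upper part of the ranks was at the promoter of Hcfc1, which encodes the chromatin co-regulator HCF-1. Its signal was 7.24 by anti-HA and 0.280 by anti-HSF2 (chrX:73965813-73968310), the 98.1st and the 2.53rd percentile, a centred log2 ratio of 4.87. Halo-H2DBD by anti-HA gave 7.74 at this site, and endogenous HSF2 gave 0.417. In mitotic cells the pair was 6.20 and 0.693. Hcfc1 was therefore high with anti-HA in all 4 anti-HA columns and low with anti-HSF2 in all 4 anti-HSF2 columns of the table.

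Another 4 of the 12 highest sites lay at coding starts. The promoter of 0610009B22Rik, which encodes a TRAPP complex subunit, had 16.2 by anti-HA and 2.03 by anti-HSF2 (chr11:51688022-51689559, centred ratio 3.18). Zfp882, a KRAB zinc finger gene, had 6.96 and 0.941 (3.07), and Ppm1b, a protein phosphatase gene, had 4.08 and 0.588 (2.98). The imprinted promoter shared by Peg3 and Usp29 had 38.2 and 6.41 (chr7:6727312-6731174, 2.76). These sites were also higher by anti-HA in mitosis, with centred ratios of 2.10, 2.31, 1.2 and 3.22. The other 7 lay away from coding starts, among them an intronic interval in Kctd16 (165 and 12.9), 1 in an intron of Rsph3a (15.2 and 1.5, chr17:7952269-7952439), and intergenic intervals at chr1:56781522-56782383 (7.34 and 0.314), chr9:3260243-3260949 (8.70 and 0.574), chr11:54140022-54140716 (93.6 and 9.08) and chr2:181930204-181932623 (23.7 and 3.19). Such intervals were narrow as a rule, and 56.7% of the bases of the chr11 interval and 42.8% of the chr2 interval are soft-masked as repeats in the reference. In mitosis 9 of the 12 highest sites were on the anti-HA side and 1 lay below the median. The Rsph3a, chr1 and chr9 intervals were not on that side, with mitotic centred ratios of 0.05, 0.61 and -0.003. Their mitotic anti-HSF2 signals were 12.5, 6.14 and 10.3.

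At the anti-HSF2 end, 5 of the 12 lowest sites lay at or nearest to genes of developmental transcription factors. This grouping was made after the values had been seen, and the share of all sites nearest to such genes was not counted. Of the 5, only those of Msx1 and Ebf3 had a coding start within 1 kb. An intergenic interval 7178 bp from the start of Dlx5, a homeobox gene of limb and craniofacial development, had 0.586 by anti-HA and 5.57 by anti-HSF2 (chr6:6873880-6874890), a centred log2 ratio of -3.07. An interval at the noncoding gene Gm46323, 146318 bp from Osr1, a zinc finger gene of kidney development, had 0.801 and 5.96 (chr12:9425011-9428123, -2.71). Msx1, another homeobox gene, had 1.07 and 6.06 at its promoter (chr5:37824049-37824965, -2.32). The site by Six3, a regulator of forebrain and eye, had 0.960 and 4.53 (-2.06), and Ebf3 had 0.999 and 4.52 (-1.99). These 5 had 15.6 to 94.1 by endogenous HSF2 in asynchronous cells. None of the 5 was on the anti-HSF2 side in mitosis, where Osr1 stood at -0.62, Msx1 at -0.43, Six3 at -0.38 and Dlx5 at 0.06, and where Ebf3 was on the anti-HA side at 1.28.

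Another 6 of the low sites were of other kinds. The imprinted gene Impact, a regulator of the GCN2 kinase, had 2.21 by anti-HA and 12.5 by anti-HSF2 (-2.31), and 3.43 and 22.1 in mitosis (-2.45). A pair of narrow intervals in an intron of Tusc3 (chr8:39152824-39153593 and chr8:39155280-39156051) had 3.45 and 28.0, and 4.55 and 20.6, and their mitotic ratios were -2.73 and -3.65. Zpbp, a sperm gene, had 0.676 and 3.38 (-2.14). Flcn, which encodes folliculin of the lysosomal signalling pathway, had 1.43 and 6.86 (-2.08), and Hdac2, a histone deacetylase gene, had 1.2 and 5.08 (-1.89). At Hdac2 the mitotic ratio was on the other side of the median, at 0.75.

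**Figure D3:**
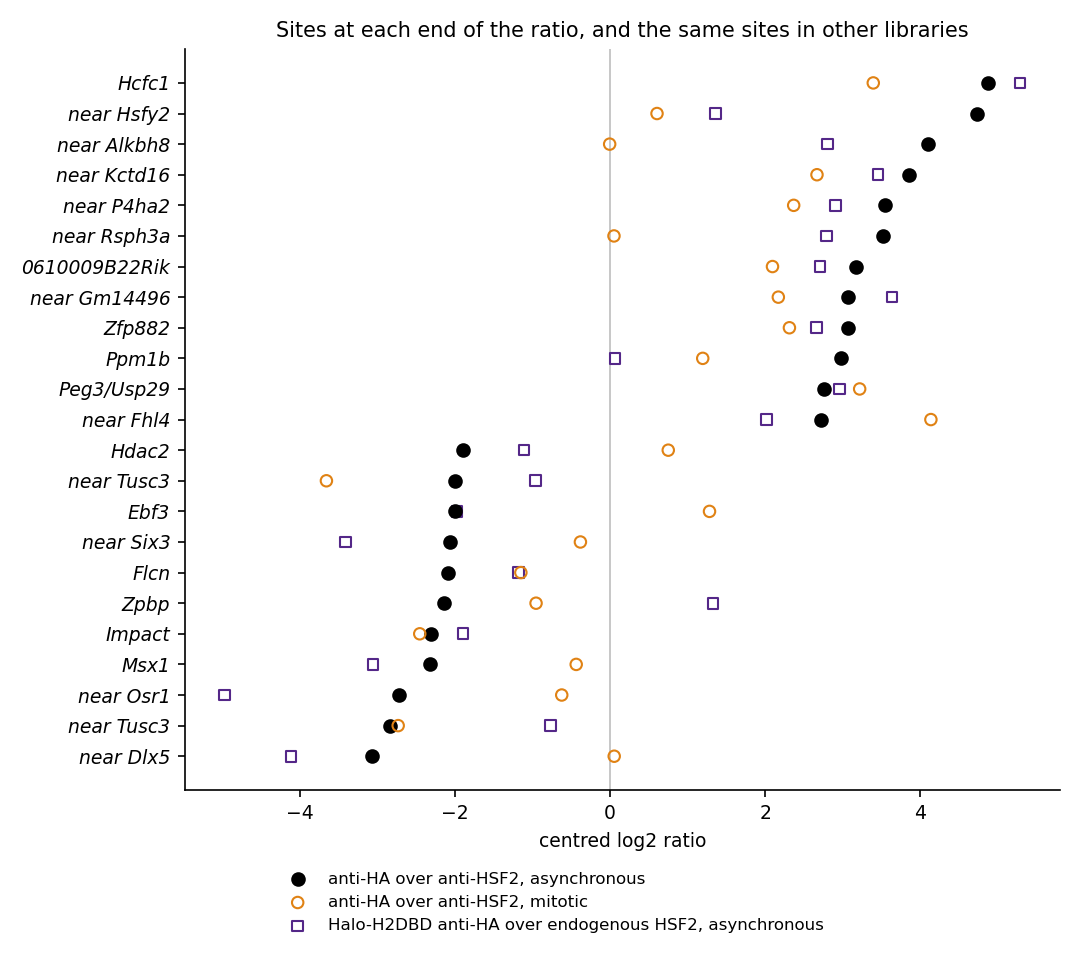
Centred log2 ratio at the 12 highest and 11 of the 12 lowest sites of the upper part of the ranks (filled points), beside the mitotic ratio of the same antibodies (open circles) and Halo-H2DBD by anti-HA over endogenous HSF2 (open squares). The latter is above 0 at all 12 high sites and below 0 at 10 of the 11 low sites shown.

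The gene lists were described by counts and medians beside those over all sites, 14.5% on the anti-HA side and 11.7% on the anti-HSF2 side. Genes of protein synthesis and of histones leaned to anti-HA. The 9 sites of translation factors had a median centred ratio of 0.86, all above 0, with 4 on the anti-HA side. Eif4b had 0.990 by anti-HA and 0.341 by anti-HSF2 (1.72), Eif3a 0.895 and 0.339 (1.58), while Eif5 (0.09) and Eif5a (0.18) were close to the median. The 17 sites of replication-dependent histone genes had a median of 0.71, again all above 0 with 4 on the anti-HA side, led by Hist1h2an with Hist1h2bp (1.78 and 0.505) and Hist1h1c (3.47 and 1.11). Hist1h2ah with Hist1h2bk was the lowest of them, at 0.02. Histone genes also have near-identical copies, and their promoters lie close together.

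Ribosomal protein genes were more divided. Of 17 cytosolic ribosomal protein sites, 5 were on the anti-HA side and 1 on the anti-HSF2 side, with a median of 0.57. Rpl13a (2.30 and 0.909) and Rpl23a (1.85 and 0.778) were the highest, and Rpl23 (0.603 and 2.36, -1.79) stood alone at the other end with Rpl19 (-0.27) next. Rpl23 had a ratio of -1.81 in mitosis. The 7 mitochondrial ribosomal protein sites had a median of 0.59, from Mrpl54 (-0.92) and Mrpl45 (0.24) to Mrps6 (0.92) and Mrpl18 (1.63). In mitosis the medians of the cytosolic ribosomal, mitochondrial ribosomal and translation factor sites were -0.04, 0.01 and -0.18.

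Short RNA genes and zinc finger genes leaned to the anti-HA side. Over all sites 26.2% were called on either side, 14.5% on the anti-HA side and 11.7% on the anti-HSF2 side. The 59 sites at starts of small nuclear, small nucleolar and other short RNAs had a median of 0.68, with 16 on the anti-HA side (27.1%) and 3 on the anti-HSF2 side (5.08%). In mitosis their median was 0.23, with 7 and 5 called, against 11.4% and 9.93% of all sites. The wider class of 126 sites at any short RNA start had a median of 0.44, with 28 and 10 called, and 0.03 in mitosis. The highest of the 59 were a pair of sites at Gm22634 (14.3 and 3.79, 2.10) and Gm22317 (10.7 and 3.32, 1.88), and Rnu12, the U12 spliceosomal RNA, had 2.44 and 0.801 (1.79). The lowest were the short RNA models by Six3 (-2.06) and Snora21, which lies within the Rpl23 site (-1.79). Of 26 zinc finger gene sites, 12 were on the anti-HA side (46.2%) and 3 on the anti-HSF2 side, with a median of 0.68. Zfp882 (3.07) and Zfp524 (12.4 and 2.77, 2.34) led the list, and Zfp384 (-1.50) and Zfp318 (-1.05) ended it. In mitosis 9 of these 26 were on the anti-HA side and 1 on the anti-HSF2 side.

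Within each chaperone family the sites were spread on both sides of the median. The 6 chaperonin sites had a median of 0.93 with 3 on the anti-HA side, namely the TRiC subunit genes Cct4 (0.829 and 0.117, 3.01), Tcp1 (1.34 and 0.489, 1.63) and Cct3 (1.31), while Cct8 (-0.11) and the Hspd1 promoter (0.09) were near 0. Among 10 sites of HSP90 and its co-chaperones the median was 0.18, from Stub1, a chaperone-linked ubiquitin ligase (1.05 and 3.83, -1.68), and Fkbp4 (-0.85) to Ahsa2 (1.14) and Ahsa1 (1.59), which encode activators of HSP90. The 6 HSP70 and HSP110 sites had a median of 0.21, and 1 was called, Hspa1b. The 8 sites of HSP40, BAG and small HSP genes had a median of -0.23, with Hspbp1, an HSP70-binding co-chaperone, at 1.8 (4.23 and 1.38) and Hspb1, the small HSP known as HSP25, at -1.16 (0.455 and 1.15). Dnajb11 (-0.75) and Dnajb1 (0.17) were next to these ends.

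In the remaining lists the medians were above 0 and few sites were called on the anti-HSF2 side. Of 15 sites of RNA polymerase II and splicing factors 4 were on the anti-HA side, led by Hnrnpa1 with Cbx5 (9.76 and 2.21, 2.33) and Sf3b2 (1.37), and 1 was on the other side, Snrpa (-1.18), followed by Prpf3 (-0.56). Of 15 respiratory chain sites 4 were on the anti-HA side, with Ndufs7 (2.66) and Atp5g1 (1.61) the highest and Cox4i1 (-0.76) and Atp5e (-0.67) the lowest. Of 15 cell cycle sites Ccnd3 (1.54) and Cdk4 (1.45 and 5.09, -1.63) were called, and Mcm7 (0.96) and Cdc34 (-0.72) came next. Of 7 proteasome and ubiquitin sites Psme3 (1.71) and Ube2d3 (1.16) were called, and 4 were above 0. Of 6 pluripotency regulators Mycn (1.14) was called, followed by Pou5f1, while Tbx3 (-0.74) and Klf5 (0.10) were the lowest. The pair of heat shock factor genes with a site, Hsf1 (0.64) and Hsf4 (-0.60), lay on opposite sides of the median and within 2-fold of it.

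**Figure D4:**
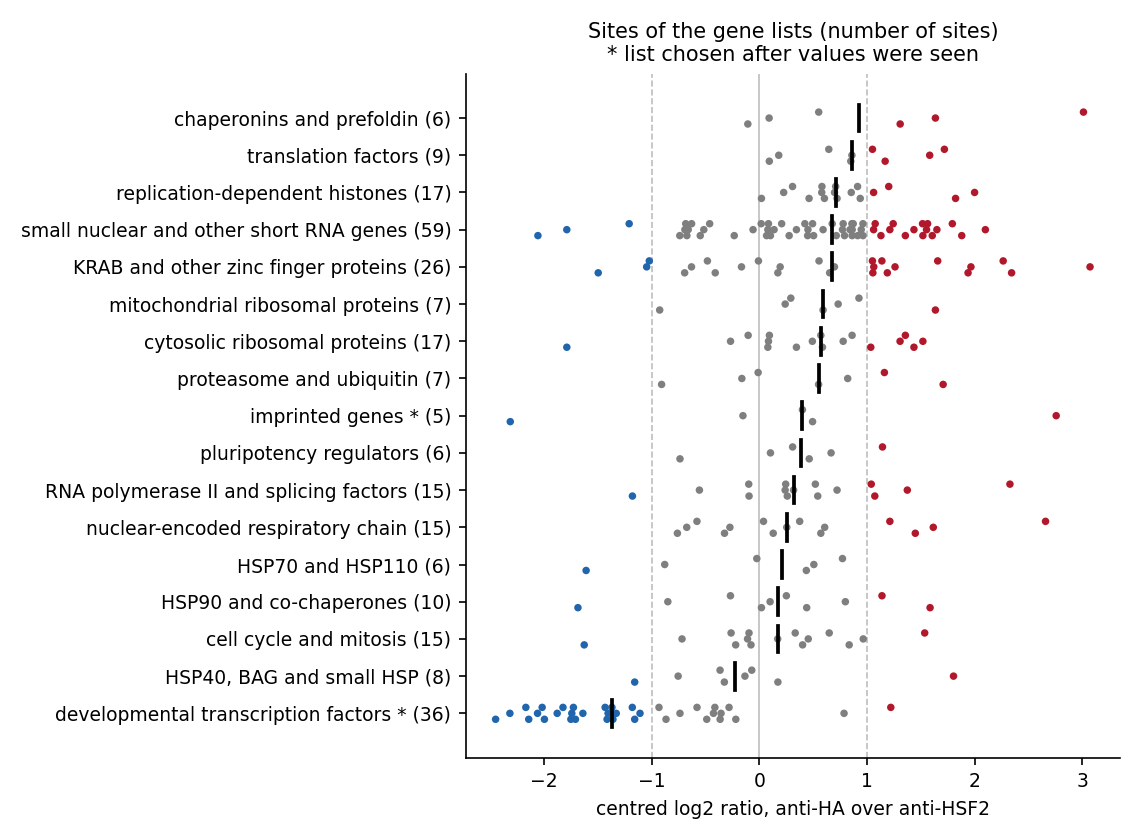
Centred log2 ratio of anti-HA over anti-HSF2 signal at the sites of each gene list, 1 point per site with called sites in red and blue, and the list's median as a black bar. Translation factors and histones lie above 0 throughout, and 23 of 36 sites of developmental transcription factors lie on the anti-HSF2 side.

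Developmental transcription factor genes were assembled into a list after their values had been seen, so the counts describe the list and support nothing. Of its 36 sites, 23 (63.9%) were on the anti-HSF2 side and 1 on the anti-HA side, with a median of -1.36. With 1 added to both signals, 7 of the 36 were on the anti-HSF2 side. Where both signals had to be 1 or higher, 7 were also on that side, but out of the fewer sites left. The 23 made up 9.24% of the anti-HSF2 side, and the 36 made up 1.70% of all sites. Foxc2, a forkhead gene, had 0.385 by anti-HA and 1.96 by anti-HSF2 (-2.17), Pax2 had 0.526 and 2.63 (-2.14), and the lower of the Tfap2a sites had 0.928 and 3.87 (-1.88). Of the clustered Hox genes, Hoxc11 (-2.06), Hoxc6 (-2.02), Hoxc5 (-1.75), Hoxb8 with Hoxb7 (-1.73), Hoxb2 (-1.64), Hoxb6 (-1.40) and Hoxc13 (-1.11) were all on the anti-HSF2 side. Hoxb3 was on the anti-HA side, with 0.534 and 0.260 (1.22), or 0.98 with 0.1 added to both signals. Signals were low at several of these genes, with 0.224 by anti-HA at Hoxc6 and 0.390 at Hoxc11.

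The ranks of these genes were taken in each column. The list was assembled after the ratio of the asynchronous Halo-HSF2 columns had been seen, so the ranks in that pair restate the choice. Their median percentile was 91.3 by endogenous HSF2 in asynchronous cells and 72.6 by anti-HSF2 of Halo-HSF2, but 18.5 by anti-HA of Halo-HSF2 and 19.5 by anti-HA of Halo-H2DBD. In mitosis their median percentile was low in all 4 columns, from 11.8 for endogenous HSF2 to 26.3 for anti-HSF2 of Halo-HSF2, and the median mitotic ratio was -0.06. In all, 30 were in the top quartile of endogenous HSF2 signal. The other 499 sites of that quartile had a median centred ratio of -0.08, with 15.8% of them on the anti-HSF2 side. Of the 36 sites, 6 overlapped an HSF1 site and 3 held a heat shock element.

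A further 2 comparisons with no library in common with the ratio give the side of the called sites elsewhere. The first is the same pair of antibodies in mitotic cells, where the Spearman correlation of the centred ratios was 0.41 over 2121 sites. Of the 308 sites on the anti-HA side, 225 (73.1%) were above the mitotic median and 97 were at least 2-fold above it, a call that 11.4% of all sites had. Of the 249 on the anti-HSF2 side, 184 (73.9%) were below it and 69 were at least 2-fold below, a call that 9.93% had. The cell lines and antibodies are the same in both phases, so this describes the pair and not the cell cycle. The second sets Halo-H2DBD by anti-HA against endogenous HSF2, which also differ by construct and genotype, where the correlation was 0.28 over 2122 sites. There 190 of the 308 were above and 188 of the 249 were below the median. Of the 308, 80 were at least 2-fold above (26%, beside 16.4% of all sites) and as many, 80, at least 2-fold below (26%, beside 26.1% of all sites). Of the 249, 126 were at least 2-fold below (50.6%) and 18 at least 2-fold above (7.23%). Sites with HSF1, whose median was above 0 in the ratio described here, had a median of -0.23 in this comparison, and the lowest GC quartile one of -0.37.

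The 97 sites on the anti-HA side in both phases and the 69 on the anti-HSF2 side in both phases differed in HSF1 overlap and in E-boxes. Of the former 67.0% overlapped an HSF1 site, beside 15.9% of the latter and 40.6% of all sites. Their median GC shares were 51.4% and 55.4%, beside 55.1% over all sites, so the latter set was close to all sites. E-boxes in the central 300 bp were found at 3 of the 97 and at 16 of the 69, beside 245 of all 2122. Named genes of the former include Sp1, Zfp143, Rif1, Dkc1 and Nqo1, and of the latter Lamp1, which encodes a lysosomal membrane protein, Ctsl (cathepsin L), Neu1 (a lysosomal sialidase), Rab7 (a late endosomal GTPase), Map1lc3b (the autophagy protein LC3B) and Flcn. None of the sites of Lamp1, Ctsl, Neu1, Rab7, Map1lc3b and Flcn held an E-box in its central 300 bp. These names were picked after the values had been seen, and no list of such genes was tested or counted over all sites.

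**Figure D5:**
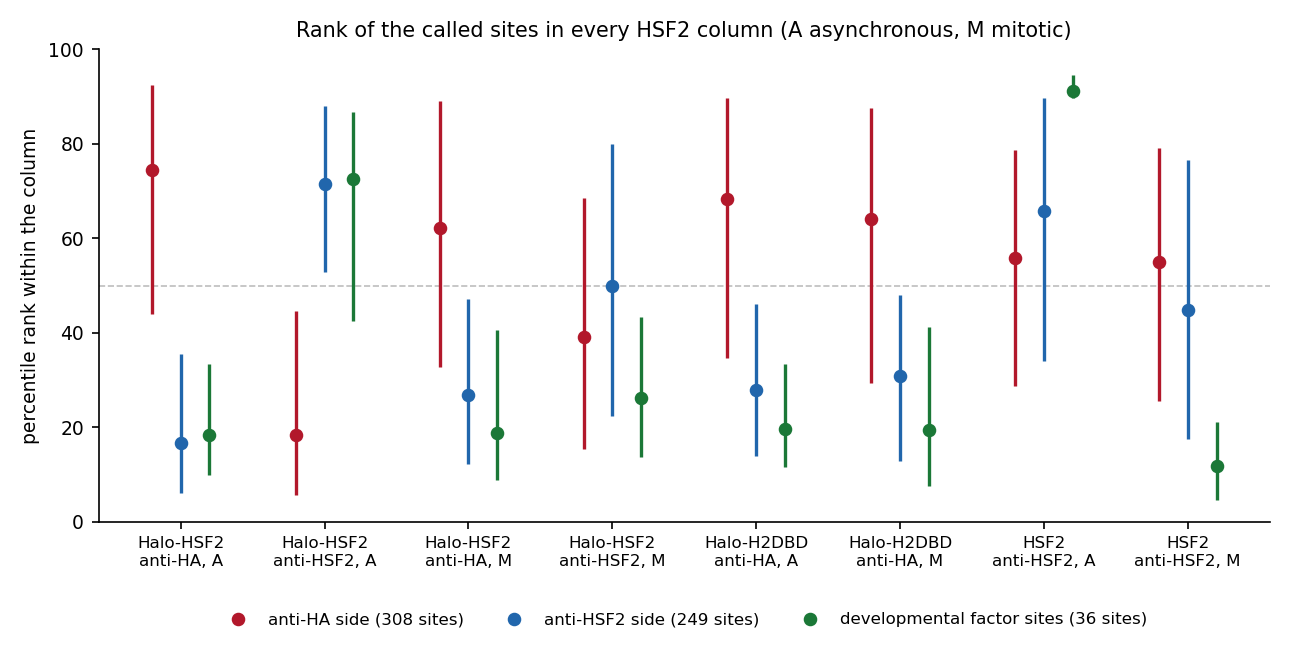
Percentile rank within each of the 8 HSF2 columns (points, medians, with bars from the lower to the upper quartile) for the 308 sites of the anti-HA side, the 249 of the anti-HSF2 side and 36 developmental factor sites. The median of the developmental sites is 91.3 for endogenous HSF2 and 72.6 for Halo-HSF2 by anti-HSF2 in asynchronous cells, and under 30 in the other 6 columns. All of these sets were chosen with the ratio of the asynchronous Halo-HSF2 columns known, so their ranks in that pair follow from the choice.

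The strongest signals lay in narrow intervals. The 5 strongest sites of either column include 3 in common, at chr10:85025974-85026270 (277 by anti-HA and 47.5 by anti-HSF2), chr5:60042719-60043085 (175 and 42.7) and chr2:98663689-98664090 (122 and 150), none at a heat shock element. Endogenous HSF2 was also high at them in asynchronous cells (142, 141 and 127). The remaining 2 of the anti-HSF2 column were at chrY:4036379-4036748 (46.4 by anti-HA and 71.0 by anti-HSF2) and chr4:153153035-153153942 (68.6 and 55.4). Soft-masked bases made up 7.41%, 11.2% and 65.4% of the chr10, chr5 and chr2 intervals, and 34.9% and 60.1% of the chrY and chr4 intervals. Halo-H2DBD by anti-HA was also high at the chr10, chr5 and chr2 intervals (275, 187 and 509). No filter for high-signal regions was applied, and whether these signals arise from mapping was not tested. At the other extreme, 13 sites were at 0 by anti-HSF2 and none was at 0 by anti-HA. Their anti-HA signal had a median of 0.352, with the highest at 2.74, and 2 of them lay at a coding start, those of Hikeshi and Slc35f3. All 13 were above 0 by anti-HSF2 in mitotic cells.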

How the data were processed

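CUT&Tag reads were aligned by the authors to mm10 with Bowtie2, with duplicates kept, and coverage tracks were made with deepTools and scaled by the Drosophila (dm6) spike-in. The deposited values are mean scaled coverage signal per site, 1 column per condition, already averaged by the authors over 2 libraries; the tables hold no read counts per site and no spread between libraries, so no counting error was computed. The site list comes from SEACR, which the authors ran on endogenous HSF2 libraries of both phases with IgG as control. Background signal in control cells was not subtracted.

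Exact repeats were counted once, ratios were taken where both signals were above 0, and the median log2 ratio was subtracted. A site was called at 2-fold or more from the median. No test was run, because averaged columns hold no replicates and sites are not replicates. Medians carry order-statistic intervals and shares Wilson 95% intervals, which cover the spread of sites only. Sites were assigned to GENCODE M21 genes within 1 kb of a start, and overlaps counted from 1 bp. Sequences were RefSeq GRCm38. Named sites were known HSF targets and pluripotency genes, the 12 highest and 12 lowest ratios in the upper part of the ranks, the 2 highest and 2 lowest of each gene list and the 5 strongest of each column; other names were chosen after their values were seen. Members and lists were chosen with earlier results of these data known. Python 3.11.15, numpy 2.4.6, pandas 2.3.3, scipy 1.17.1, matplotlib 3.10.9 and pysam 0.24.0 were used, and the scripts were tested on simulated data. A few of the sites that this rule names are not reported here.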

Additional observations from a re-analysis of the deposited data

How the results depend on the processing

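Of 84 recomputed summary values, 68 stayed within the stated limits, 13 moved and 3 reversed. The 84 include values with intervals merged and with every listed row, settings that left the sites unchanged or nearly so. Adding 1 to both signals brought the median log2 ratio to -0.10, the sites on the anti-HA side to 93, those on the anti-HSF2 side to 49 and the HSF1 difference, otherwise 0.31, to 0.17. Requiring both signals to be 1 or higher, which left 1244 sites, gave -0.14, 119, 78 and 0.19, with a Spearman rho of 0.41. The log2 ratio of the column means was 0.14, opposite in sign to the median. The HSF1 difference was 0.44 and 0.11 in quartiles 3 and 4 of mean rank, and 0.18 and 0.17 in quartiles 2 and 4 of GC share, all chosen after seeing the data. The coding start difference turned from -0.07 to 0.022 when the centre of the site had to lie within 1 kb, and the heat shock element difference from 0.04 to -0.12 when 4 units were required. The causes of these shifts were not tested.

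Of 587 values at 93 named sites 564 kept their side of the 2-fold limit, 23 lost it and no called site changed sign. Of the 23, 21 were with 1 added, and the other 2 were Hoxb3 (0.98) and Zfp318 (-0.97) with 0.1 added. Merging intervals could change nothing, and counting every listed row brought back only 6 exact repeats, so the 93 values of each were near certain to stay. Where both signals had to be 1 or higher, only 48 of the 93 sites had a value. The median of the developmental list, chosen after seeing the data, was -1.36, with 23 called. It became -0.80 with 7 called when 1 was added, and -1.30 with 7 called where both signals were 1 or higher. The latter setting left out list sites with a signal below 1, so its 7 are out of fewer sites. No paired analysis was possible because the averaged columns carry no replicate numbers, and no replicate could be left out for the same reason. No intervals overlapped, so merging left 2135 sites. The tables hold no read counts per site, so how far depth limits low signals was not tested.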

Other observations

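The medians of the centred log2 ratio by chromosome ran from -0.30 on chr14 (45 sites) and -0.18 on chr10 (109 sites) to 0.15 on chr6 (114 sites) and 0.17 on chr15 (82 sites). In mitotic cells the same chromosomes had 0.12, -0.12, 0.04 and -0.16, so that chr14 and chr15 lay on opposite sides in the 2 phases.

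Imprinted genes, listed after their values had been seen, held a site near each end of the ratio. Of 5 sites, Peg3 with Usp29 stood at 2.76 and Impact at -2.31, and each was on the side it had in asynchronous cells also in mitosis, at 3.22 and -2.45. Gnas (0.49), Peg10 with Sgce (0.40) and Cdkn1c (-0.15), a cell cycle inhibitor gene, lay within 2-fold of the median.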
